A study of Arabidopsis thaliana with 24 samples.

Results

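The 10 tau class glutathione transferases GSTU1 (AT2G29490), GSTU2 (AT2G29480), GSTU4 (AT2G29460), GSTU5 (AT2G29450), GSTU7 (AT2G29420), GSTU8 (AT3G09270), GSTU9 (AT5G62480), GSTU19 (AT1G78380), GSTU24 (AT1G17170) and GSTU25 (AT1G17180) were followed in Arabidopsis thaliana seedlings placed in salicylhydroxamic acid (SHAM). They were taken by locus from a table of 16183 genes, and all 10 were in it. Libraries came from wild-type Col-0 seedlings that were 7 days old, pooled at 30 to 50 per biological replicate and separated into roots and shoots after 1 h in water or 1, 2 or 3 h in SHAM. This gave 8 groups of 3 libraries, 24 in all, made by MARS-seq, which sequences the 3′ end of transcripts. No transgene or mutation was named for any group. The treatment label gives 1 mM SHAM, while the treatment protocol names additions of 5 mM histidine or 0.1 mM SHAM and also a mixture of 1 mM SHAM with 30% polyethylene glycol (PEG). Whether PEG or histidine was present, and which dose applied, cannot be told apart from these labels. Water was sampled at 1 h alone, so at 2 and 3 h the effect of SHAM and of a longer time in solution cannot be told apart.

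Glutathione transferases join the tripeptide glutathione to reactive, electrophilic compounds, which are then moved to the vacuole and broken down. The tau class is found in plants and is a main class for herbicides and other foreign chemicals. Many of its genes lie in tandem clusters, and several are switched on by salicylate, oxidized lipids and foreign chemicals through TGA factors, a group of bZIP proteins that bind TGACG cores, together with the GRAS protein SCL14. SHAM is a hydroxamic acid of salicylate that inhibits the mitochondrial alternative oxidase and also acts on other enzymes, among them lipoxygenases and peroxidases.

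In the TAIR10.1 annotation (RefSeq), GSTU1, GSTU2, GSTU4, GSTU5 and GSTU7 lie in a cluster on the minus strand of chromosome 2. GSTU24 and GSTU25 are neighbours on the plus strand of chromosome 1, GSTU19 lies beside GSTU20 on the minus strand of chromosome 1, GSTU8 is on chromosome 3 and GSTU9 on chromosome 5. The build used by the authors is not given in the sources used here, and the deposited table carries no coordinates. Coding sequences of the 45 pairs of members were 53.8% to 85.5% identical (median 59.0%), with GSTU1 and GSTU2 the closest pair. GSTU24 and GSTU25 were 79.4% identical. In the last 300 bases of the transcripts, where a 3′ method reads, the longest identical run shared by any 2 members was 14 bases, and 20 bases over all pairs of tau class genes. How reads with more than 1 match were counted is not given in the sources used here. GSTU2 and GSTU7 overlap genes on the opposite strand (AT2G29485 for GSTU2; AT2G29410 and a long non-coding RNA, AT2G08340, for GSTU7). Strand use in the counting is not stated either, so reads of such pairs cannot be told apart.

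The 250 bases before the annotated gene start were searched for TGACG on both strands, where the reverse strand reads CGTCA. At least 1 match was present in 6 of the 10 members and in 5 of the 18 other tau class genes. Among 15998 genes of the table with such a window, 19.3% had at least 1 match and 3.6% had 2 or more. Windows of GSTU1, GSTU7 and GSTU9 held 2 or more, and no other tau class gene did. The windows of 5 members are shown because they span the responses described next: GSTU1, GSTU7 and GSTU25 were higher in SHAM roots and hold matches, GSTU9 was lower in roots at 1 h and also holds matches, and GSTU19 was higher in both organs and holds none. Each reads 5′ to 3′ on the strand of its gene and ends at the base before the gene start, with matches in capitals.
GSTU1, chr2:12632539-12632788, minus strand: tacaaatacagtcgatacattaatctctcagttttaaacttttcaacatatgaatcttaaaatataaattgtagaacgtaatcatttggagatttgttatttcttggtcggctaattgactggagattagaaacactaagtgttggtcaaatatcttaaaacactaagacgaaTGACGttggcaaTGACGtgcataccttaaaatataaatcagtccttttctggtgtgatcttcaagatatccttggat
GSTU7, chr2:12618900-12619149, minus strand: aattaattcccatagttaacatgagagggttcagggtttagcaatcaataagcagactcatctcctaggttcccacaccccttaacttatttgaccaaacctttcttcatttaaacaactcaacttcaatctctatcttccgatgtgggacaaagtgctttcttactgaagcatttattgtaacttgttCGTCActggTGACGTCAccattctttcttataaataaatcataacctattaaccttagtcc
GSTU25, chr1:5871774-5872023, plus strand: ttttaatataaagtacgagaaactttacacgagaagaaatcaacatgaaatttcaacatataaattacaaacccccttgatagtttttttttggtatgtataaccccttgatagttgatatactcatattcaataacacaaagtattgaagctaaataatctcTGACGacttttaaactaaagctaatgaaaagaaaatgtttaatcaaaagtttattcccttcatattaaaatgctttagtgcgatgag
GSTU9, chr5:25089627-25089876, minus strand: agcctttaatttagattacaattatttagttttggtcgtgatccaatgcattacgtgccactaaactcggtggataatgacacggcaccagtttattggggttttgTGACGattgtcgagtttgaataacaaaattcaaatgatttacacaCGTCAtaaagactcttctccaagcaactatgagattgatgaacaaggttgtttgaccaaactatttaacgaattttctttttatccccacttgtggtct
GSTU19, chr1:29488008-29488257, minus strand: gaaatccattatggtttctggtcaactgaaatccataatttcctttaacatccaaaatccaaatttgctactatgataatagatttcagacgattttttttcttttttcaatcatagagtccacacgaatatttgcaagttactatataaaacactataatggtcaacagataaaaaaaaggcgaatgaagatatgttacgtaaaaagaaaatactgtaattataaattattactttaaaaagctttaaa
In GSTU1 the 2 matches begin 77 and 65 bases before the gene start. In GSTU7 the 3 matches begin at 61, 52 and 49 bases, and the last pair overlaps in a palindrome. The GSTU7 window also overlaps a non-coding locus, AT2G00850. In GSTU9 the matches begin at 144 and 99 bases, and GSTU25 has its match at 87 bases. Outside the windows shown, GSTU5 had 1 match at 142 bases and GSTU24 had 1 at 169 bases, while GSTU2, GSTU4 and GSTU8 had none. The GSTU5 window overlaps another gene, AT2G29452, and the GSTU24 window overlaps AT1G17160. A match describes letters in this window and was not tested as a binding site.

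Library totals ran from 862731 to 3622300 counts. The labelled organs matched their markers: 15 shoot marker genes took 9.28% to 15.9% of the counts in shoots. In roots they took 0.0314% to 0.18%, apart from root SHAM 1 h replicate 1 with 1.74%. The 10 root marker genes took 0.087% to 0.293% in roots and 0.0024% to 0.0317% in shoots, with 2 to 5 of the 10 at 0 in single shoot libraries. In roots the same markers were lower with SHAM, with 5, 6 and 5 of 10 passing the test at 1, 2 and 3 h. Of all genes tested in roots, 5.22%, 5.4% and 6.4% were called lower at these times. In bulk organs, fewer cells of a type and less RNA per cell cannot be told apart. Values below are CPM, the counts of a gene scaled to a common library total of 1e+06, in replicates 1, 2 and 3 in that order. Log2 fold changes have their SE and come from edgeR's quasi-likelihood test, with p-values adjusted over all genes tested. A gene is called higher or lower at an adjusted p under 0.05. The comparisons of 1, 2 and 3 h with water share the same 3 water libraries.

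Together the members took 0.0338% to 0.0388% of root counts in water. After 1 h of SHAM this share was 0.197% to 0.257%, after 2 h it lay between 0.229% and 0.464%, and after 3 h between 0.309% and 0.458%. Shoot libraries had 0.0329% to 0.0358% in water. Their share was between 0.0515% and 0.0884% after 1 h of SHAM, between 0.0913% and 0.110% after 2 h, and between 0.0726% and 0.114% after 3 h. Every SHAM library of an organ had a higher share than each water library of that organ. The plot of member levels by library shows that GSTU19 and GSTU7 carried this in both organs, with GSTU24 and GSTU25 added in roots.

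**Figure D1:**
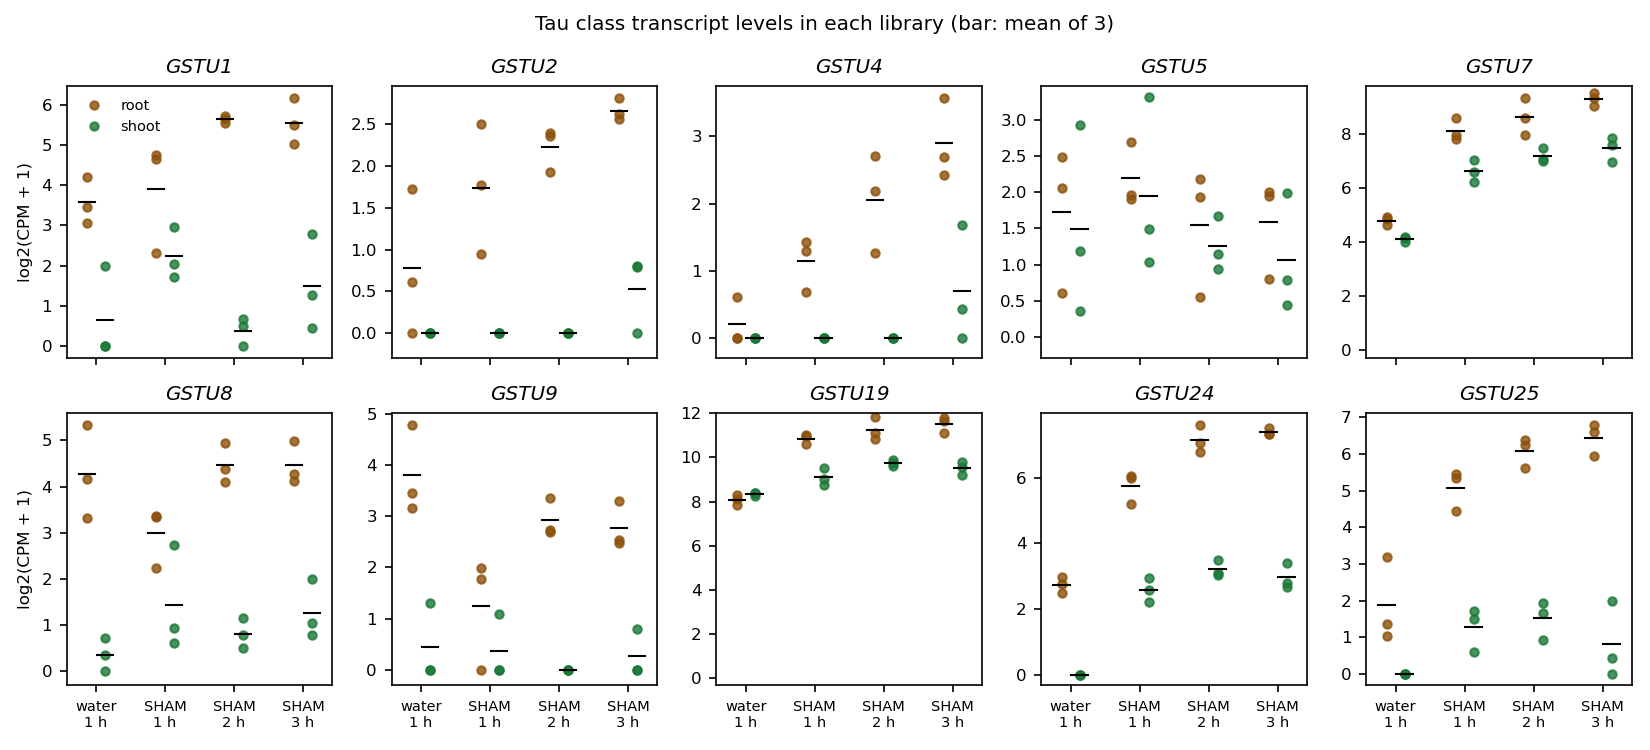
Level of each of the 10 tau class members in every library, as log2(CPM + 1) on the vertical axis, by treatment and time on the horizontal axis. Points are libraries (brown, root; green, shoot), black bars are the mean of the 3 libraries of a group, and each panel has its own vertical scale. GSTU7, GSTU19, GSTU24 and GSTU25 have all SHAM root libraries above all water root libraries, and GSTU9 has its SHAM 1 h root libraries below its water root libraries.

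Roots at 1 h of SHAM had 4 members higher and 1 lower among the 8 that passed the filter on low counts, where 7.01% of the 10642 genes tested were called higher and 5.22% lower. The higher members were GSTU7, GSTU19, GSTU24 and GSTU25, and the lower member was GSTU9. At 2 h and at 3 h, 6 members were higher and none lower, against 8.6% and 9.99% of all genes called higher and 5.4% and 6.4% lower. GSTU1 and GSTU4 joined the first 4 at these times, and GSTU9 was no longer called. The median log2 fold change of the 8 tested members was 2.69, 3.78 and 4.34 at 1, 2 and 3 h, beside 0.04, -0.08 and -0.07 over all genes tested. GSTU2 and GSTU5 did not pass the filter in roots. GSTU4, with 1 water count, passed through the SHAM groups alone, so its direction was fixed by the filter. GSTU24 and GSTU25, with 28 and 12 water counts, also needed SHAM libraries to pass, so the filter favoured a higher call for them. The counts of called members and the medians above include these genes. Leaving out SHAM 1 h replicates 1 and 2 together, a setting chosen after seeing the data because replicate 1 held shoot markers and replicate 2 was low for several members, gave 4 higher and 0 lower at 1 h. That fit has 1 library at 1 h, which is assumed to vary like the other groups.

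GSTU19 is a broad-acting enzyme whose raised expression has been linked to tolerance of salt and drought. Its root level was 279, 232 and 314 CPM in water and 1569, 1979 and 2041 CPM at 1 h. At 2 h it was 1811, 2226 and 3640 CPM, and at 3 h 2196, 3169 and 3561 CPM. Every SHAM library was far above the water libraries, while the ranges at 1 and 2 h and at 2 and 3 h overlapped, and those at 1 and 3 h did not. The log2 fold change against water was 3.00 ± 0.28 at 1 h (adjusted p = 9.34e-06), 3.55 ± 0.29 at 2 h (adjusted p = 1.48e-06) and 3.79 ± 0.29 at 3 h (adjusted p = 8.07e-07). In root SHAM 1 h replicate 1, the library with shoot markers, GSTU19 was the lowest of its group, and without that library or any other single one the 1 h change was 2.93 to 3.19.

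GSTU7, an enzyme linked to tolerance of oxidative stress from methyl viologen, was measured in roots at 23.8, 29.0 and 27.6 CPM in water. It stood at 243, 224 and 385 CPM at 1 h, at 249, 379 and 642 CPM at 2 h and at 524, 629 and 716 CPM at 3 h. The water libraries were close together and none came near a SHAM library. The log2 fold change was 3.64 ± 0.36 at 1 h (adjusted p = 1.38e-05), 4.31 ± 0.37 at 2 h (adjusted p = 2.2e-06) and 4.89 ± 0.37 at 3 h (adjusted p = 8.07e-07). Replicate 3 was the highest at each SHAM time.

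GSTU24 and GSTU25, the tandem pair of chromosome 1, encode enzymes that act on the explosive TNT. In roots GSTU24 was at 6.87, 4.64 and 5.84 CPM in water, 65.0, 36.0 and 62.5 CPM at 1 h, 108, 130 and 192 CPM at 2 h and 158, 159 and 181 CPM at 3 h. The water, 1 h and 2 h libraries formed separate ranges, and the 3 h libraries fell within the range at 2 h. Its log2 fold change was 3.42 ± 0.34 at 1 h (adjusted p = 1.63e-05), 4.91 ± 0.35 at 2 h (adjusted p = 5.38e-07) and 5.15 ± 0.35 at 3 h (adjusted p = 3.68e-07). GSTU25 was at 1.59, 8.11 and 1.06 CPM in water, 39.5, 20.9 and 42.7 CPM at 1 h, 47.8, 82.1 and 74.2 CPM at 2 h and 109, 95.4 and 60.0 CPM at 3 h. Its water libraries differed more among themselves than those of GSTU24 did. Its 1 h libraries lay below every 2 h and 3 h library, and the ranges at 2 and 3 h overlapped. The log2 fold change of GSTU25 was 3.79 ± 0.58 at 1 h (adjusted p = 0.00086), 4.88 ± 0.58 at 2 h (adjusted p = 6.25e-05) and 5.28 ± 0.58 at 3 h (adjusted p = 2.72e-05). Without water replicate 2, the highest water library of GSTU25, these changes were 4.88, 6.003 and 6.40.

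GSTU1 belongs to the chromosome 2 cluster, like GSTU7. Its root level was 7.40, 17.4 and 10.09 CPM in water and 25.9, 4.004 and 24.2 CPM at 1 h, so that replicate 2 at 1 h lay below every water library. At 2 h it was 49.2, 51.7 and 45.8 CPM and at 3 h 70.3, 44.1 and 31.3 CPM, all above water. The log2 fold change was 0.90 ± 0.56 at 1 h (adjusted p = 0.277), 2.46 ± 0.56 at 2 h (adjusted p = 0.00945) and 2.47 ± 0.56 at 3 h (adjusted p = 0.00816). Without SHAM 1 h replicate 2 the 1 h change was called (1.43, adjusted p = 0.0414), and without water replicate 1 the 2 h change was not (2.24, adjusted p = 0.0511).

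GSTU4 had 1 count in the 3 water root libraries together, and 9, 19 and 43 counts at 1, 2 and 3 h. The ratio of pooled CPM to water was 5.45 at 1 h (95% counting interval 0.755 to 239), 17.6 at 2 h (2.79 to 729) and 30.6 at 3 h (5.21 to 1238), with adjusted p of 0.151, 0.0138 and 0.00201 in the fit. The 2 h call was lost without water replicate 3 (adjusted p = 0.0635) or without SHAM 2 h replicate 3 (adjusted p = 0.0685). GSTU2, its neighbour in the cluster, had 3 counts in water and 19, 19 and 34 counts at the 3 times. The ratios were 3.83 (1.13 to 20.2), 5.85 (1.72 to 30.9) and 8.08 (2.54 to 41.1), and in a fit with no filter on low counts the 3 h change had an adjusted p of 0.0122. GSTU5 was at 0.529, 4.64 and 3.19 CPM in water roots and between 0.458 and 5.52 CPM in SHAM roots, so its groups overlapped throughout. These intervals cover counting error only.

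GSTU8 and GSTU9 did not follow the others at 1 h. GSTU9 was at 10.04, 26.7 and 7.96 CPM in water roots and at 2.97, 0 and 2.42 CPM after 1 h of SHAM, with no overlap. It was lower by a log2 fold change of -2.81 ± 0.75 (adjusted p = 0.0266). At 2 h it was 5.62, 9.20 and 5.50 CPM (-0.75 ± 0.67, adjusted p = 0.499) and at 3 h 8.79, 4.83 and 4.59 CPM (-0.91 ± 0.67, adjusted p = 0.391), and both ranges reached into that of water. The 1 h call was lost with a replicate block (-2.77, adjusted p = 0.0514). It was also lost without water replicate 2, which had the highest GSTU9 level and the smallest library total (-2.14, adjusted p = 0.12). In the fit with 1 SHAM 1 h library, whose spread comes from the other groups, the change was -2.18. The call held at -3.40 without SHAM 1 h replicate 1 and at -2.09 without SHAM 1 h replicate 2, which had no count. GSTU8 was at 8.99, 39.4 and 17.0 CPM in water roots, 9.34, 3.70 and 9.21 CPM at 1 h, 16.2, 19.8 and 29.8 CPM at 2 h and 18.3, 30.8 and 16.4 CPM at 3 h. Its SHAM groups each overlapped water, and the log2 fold changes were -1.29 ± 0.54 (adjusted p = 0.116), 0.41 ± 0.51 (adjusted p = 0.648) and 0.41 ± 0.51 (adjusted p = 0.632).

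**Figure D2:**
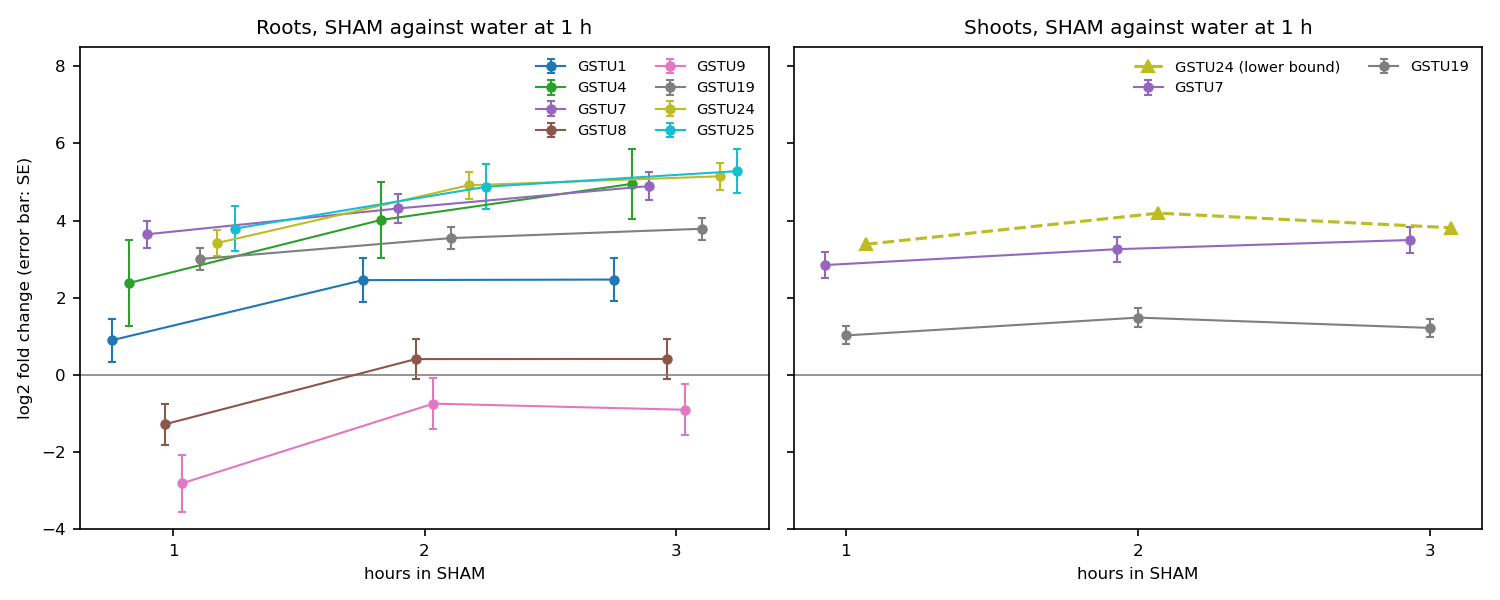
Log2 fold change of SHAM against water at 1 h for the members that passed the filter on low counts, in roots (left) and shoots (right), by hours in SHAM. Points are edgeR estimates with their SE, and triangles on the dashed line are lower bounds for GSTU24 in shoots, where water had 0 counts; GSTU4 in roots rests on 1 water count. In roots 5 members lie above 3 at 3 h (from 3.79 for GSTU19 to 5.28 for GSTU25), GSTU1 lies at 2.47, GSTU8 at 0.41 and GSTU9 at -0.91.

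From 1 to 2 h in roots 1 of 8 members, GSTU24, was called higher (1.497 ± 0.283, adjusted p = 0.0134) and none lower, where 2.28% of all genes were called higher and 1.81% lower. The call was lost without SHAM 2 h replicate 3 (1.21, adjusted p = 0.0792), the library with the highest level. At an unadjusted p under 0.05, 7 of 8 members differed, and DESeq2 called 3, adding GSTU1 (1.57, adjusted p = 0.0351) and GSTU8 (1.69, adjusted p = 0.033). The shares of all genes on these rules were not counted, so these member counts have no background. From 2 to 3 h no member was called by edgeR, with 0 at an unadjusted p under 0.05 and 0 by DESeq2, and 0% of all genes were called. The changes lay between -0.16 for GSTU9 and 0.94 for GSTU4.

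Shoots had 3 members past the filter on low counts, GSTU7, GSTU19 and GSTU24. GSTU7 and GSTU19, with counts in every water library, were called higher at 1, 2 and 3 h. GSTU24 had no count in water shoots and passed through the SHAM groups alone, so its call could go 1 way only. Over all 8570 genes tested in shoots, 9.36%, 8.38% and 6.31% were called higher and 7.49%, 7.44% and 2.68% lower. GSTU7 was at 14.8, 16.8 and 17.1 CPM in water shoots, 95.9, 73.2 and 130 CPM at 1 h, 134, 126 and 177 CPM at 2 h and 191, 123 and 228 CPM at 3 h. No SHAM library came near water, and neighbouring times overlapped. The log2 fold change was 2.85 ± 0.33 (adjusted p = 5.18e-05), 3.26 ± 0.33 (adjusted p = 1.93e-05) and 3.50 ± 0.33 (adjusted p = 1.24e-05) at 1, 2 and 3 h.

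GSTU19 rose less in shoots. It was at 303, 340 and 334 CPM in water, 525, 432 and 742 CPM at 1 h, 953, 772 and 865 CPM at 2 h and 768, 593 and 883 CPM at 3 h, again with every SHAM library above water. The log2 fold change was 1.02 ± 0.23 (adjusted p = 0.00838), 1.48 ± 0.24 (adjusted p = 0.000761) and 1.22 ± 0.24 (adjusted p = 0.00463). Across the 8 groups on CPM, GSTU19 was highest in SHAM roots, then in SHAM shoots, then in water shoots and water roots. SHAM roots overlapped between 1 and 2 h and between 2 and 3 h, as did SHAM shoots between 1 and 3 h and between 2 and 3 h, and water roots and water shoots. On CPM, no SHAM shoot library reached the lowest SHAM root library. CPM takes library totals alone, which in water moves the median of all genes by -1.07 (log2) between organs. The separation was not examined on the scaling of the fit.

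GSTU24 had 0 counts in all 3 water shoot libraries, against 6.77, 3.66 and 5.01 CPM at 1 h, 7.57, 10.2 and 7.27 CPM at 2 h and 5.46, 5.94 and 9.64 CPM at 3 h. Against a floor of 3 counts over the water group this was at least 10.4-fold higher at 1 h, at least 18.3-fold higher at 2 h and at least 14.1-fold higher at 3 h (adjusted p of 0.00041, 0.000164 and 0.000357). GSTU25 had 0 counts in water and 7, 13 and 5 counts at 1, 2 and 3 h, or at least 3.05-fold, 3.96-fold and 1.56-fold higher on the same floor. It did not pass the filter, and in a fit with no filter its 2 h change had an adjusted p of 0.0385. Pooled over 3 libraries, the GSTU24 level in SHAM shoots was 9.23%, 5.58% and 3.80% of that in SHAM roots at 1, 2 and 3 h, and the 10 root markers summed stood at 9.93%, 4.24% and 3.19%. The root marker PYK10 supplied most of the shoot counts in that sum, though not of the root counts, and the 9 others stood at 1.34%, 0.948% and 1.23%. In water the 10 markers stood at 3.35% and GSTU24 at 0 counts. Whether root RNA in shoot libraries takes part in the GSTU24 and GSTU25 values was not tested. For GSTU7 and GSTU19 the SHAM shoot levels were 22.6% to 37.4% of the root levels, on CPM without scaling between organs.

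**Figure D3:**
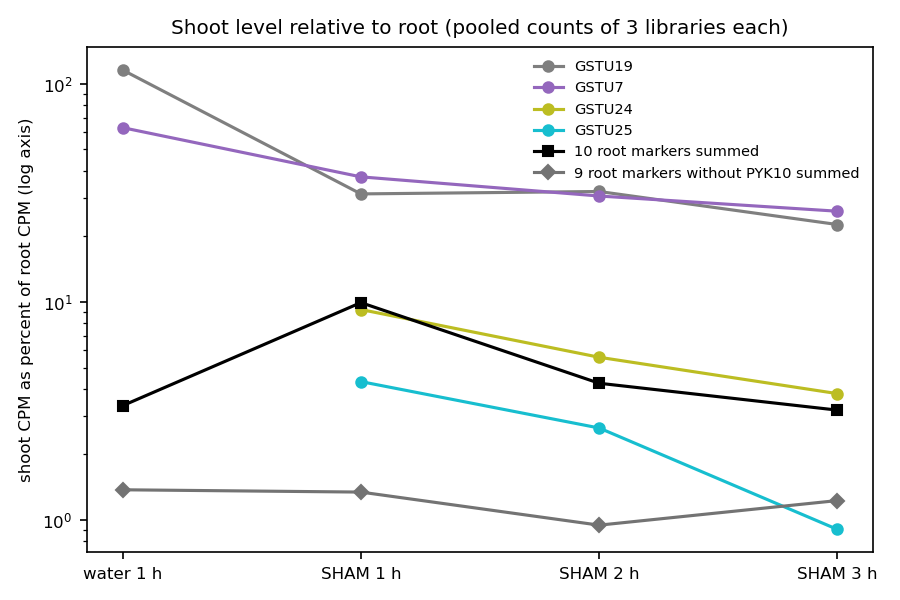
Shoot level as a percent of the root level at the same exposure, from counts pooled over the 3 libraries of each group, on a log vertical axis, for 4 tau class genes, the sum of 10 root marker genes and the sum of 9 without PYK10. GSTU24 and GSTU25 have no point in water because their shoot count was 0. GSTU19 goes from 116% in water to 22.6% at 3 h, and GSTU24 lies close to the sum of 10 markers and above the sum of 9 at all 3 SHAM times.

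The remaining 6 members were near the detection limit in shoots. GSTU2 and GSTU4 had 0 counts in all water, 1 h and 2 h shoot libraries and 3 and 4 counts at 3 h. GSTU1 reached 6.77 CPM, GSTU8 5.64 CPM, GSTU9 1.48 CPM and GSTU5 9.03 CPM in their highest shoot library, and without the filter none of the 6 had an adjusted p under 0.05 against water at any time. The steps from 1 to 2 h and from 2 to 3 h in shoots had 0 of 3 members called by edgeR, 0 at an unadjusted p under 0.05 and 0 by DESeq2. The step changes lay between -0.34 and 0.57, while 2.71% of all genes were called higher and 3.2% lower from 1 to 2 h, and 4.66% and 4.28% from 2 to 3 h.

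The response to SHAM was then compared between organs in a fit of all 24 libraries, in which 9 members were tested. Only GSTU19 was called: its log2 change in shoots minus that in roots was -2.10 ± 0.41 at 1 h (adjusted p = 0.00375), -2.13 ± 0.40 at 2 h (adjusted p = 0.00331) and -2.63 ± 0.41 at 3 h (adjusted p = 0.000683). Among all 11704 genes tested, 3.96%, 2.52% and 1.29% were called in that direction at 1, 2 and 3 h, and 1.97%, 0.82% and 0.436% in the other. GSTU7 had the same sign without passing the threshold, at -0.93 ± 0.47 (adjusted p = 0.232), -1.14 ± 0.47 (adjusted p = 0.202) and -1.47 ± 0.47 (adjusted p = 0.112). The other members had too few shoot counts for a useful estimate. DESeq2 also called GSTU8 at 1 h (4.21, adjusted p = 0.0356), which had 2 counts in water shoots and 8 at 1 h.

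In water, 5 members were lower and 1 was higher in shoots than in roots among 9 tested, where 25.1% of all genes were called in each direction. The 5 lower members, GSTU1, GSTU8, GSTU9, GSTU24 and GSTU25, had 4, 2, 2, 0 and 0 counts in water shoots. They passed the filter on low counts through other groups, so the filter favoured a lower call in shoots for these genes. GSTU8 was at 0, 0.645 and 0.276 CPM in water shoots, and the pooled root level was 58.4 times the shoot level (95% counting interval 15.7 to 490). The same ratio was 40.1 for GSTU9 (10.6 to 339). On CPM, GSTU24 was at least 13.1-fold higher in roots and GSTU25 at least 5.63-fold higher, since neither had a shoot count. These ratios and bounds rest on library totals alone and are smaller on the scaling of the fit. In that fit the log2 fold change was -4.82 ± 0.88 for GSTU8 and -4.18 ± 1.09 for GSTU9. GSTU1 was lower in shoots by a log2 fold change of -2.91 ± 1.00 (adjusted p = 0.0188), which was lost without shoot water replicate 2 (adjusted p = 0.0667) or 3 (-1.85, adjusted p = 0.157). All 4 shoot counts of GSTU1 in water were in replicate 1. The GSTU25 call (adjusted p = 0.0197) was lost without root water replicate 2 (adjusted p = 0.0746) or shoot water replicate 3 (adjusted p = 0.0987). GSTU19 was higher in shoots after scaling (1.32 ± 0.29, adjusted p = 0.000533) but not with library size alone (0.23, adjusted p = 0.447), a setting that moves the median of all genes by -1.07. GSTU7 was not called, and its sign also depended on the scaling (0.36 in the fit and -0.72 with library size alone).

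Over the 12 root libraries, the log2(CPM + 1) levels of GSTU7, GSTU19, GSTU24 and GSTU25 followed each other, with Pearson's r between 0.908 for GSTU19 and GSTU25 and 0.988 for GSTU19 and GSTU7. GSTU8 stood apart from these 4 (-0.03 with GSTU19 and 0.203 with GSTU25), and its r with GSTU1 was 0.611. In the 12 shoot libraries the r of GSTU7 and GSTU19 was 0.936. These libraries share treatment groups, so the values describe likeness and have no test. Among 7091 root genes with a mean of at least 10 CPM, the closest to GSTU19 was the serine acetyltransferase SERAT2;1 (AT1G55920, r = 0.995) and the closest to GSTU24 the transcription factor bHLH39 (AT3G56980, r = 0.992). GSTU7 was closest to AT3G29240 (r = 0.987), GSTU25 to the glycosyltransferase UGT76B1 (AT3G11340, r = 0.983), GSTU1 to AT2G22880 (r = 0.969) and GSTU8 to Bax inhibitor BI1 (AT5G47120, r = 0.946). Among 5489 shoot genes, GSTU7 was closest to AT1G19960 (r = 0.978) and GSTU19 to UGT85A1 (AT1G22400, r = 0.954).

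Of the 18 other tau class genes, 14 were in the table and 11 were tested in roots, where 2, 4 and 4 were higher at 1, 2 and 3 h and none lower, beside 7.01%, 8.6% and 9.99% of all genes higher. Their median log2 fold change was 0.58, 0.39 and 0.73. GSTU11 had 0 counts in water roots and was at least 9.08-fold, 20.0-fold and 20.7-fold higher at the 3 times (adjusted p of 0.00958, 0.00162 and 0.00118). It passed the filter through the SHAM groups alone, so its call, which is part of the counts above, could go 1 way only. GSTU12, its neighbour, was at 2.12, 1.16 and 5.84 CPM in water and at 17.6, 17.7 and 61.8 CPM at 2 h (3.61 ± 0.82, adjusted p = 0.00874). The change was 2.72 without SHAM 2 h replicate 3 and 4.56 without water replicate 3. GSTU12 also needed SHAM libraries to pass the filter, so the filter favoured a higher call for it, which is part of the counts above. GSTU22 rose at 2 h (2.04 ± 0.57, adjusted p = 0.0263) and 3 h (2.43 ± 0.56, adjusted p = 0.00913). The 2 h call of GSTU22 was lost without water replicate 1 or 3 or SHAM 2 h replicate 2 or 3 (adjusted p up to 0.102). Without water replicate 2 the changes were 2.72 and 3.09. GSTU13 rose by 0.65 ± 0.20 at 1 h (adjusted p = 0.0459), a call that held in only 1 of the 6 fits that left out 1 library, the one without SHAM 1 h replicate 1.

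**Figure D4:**
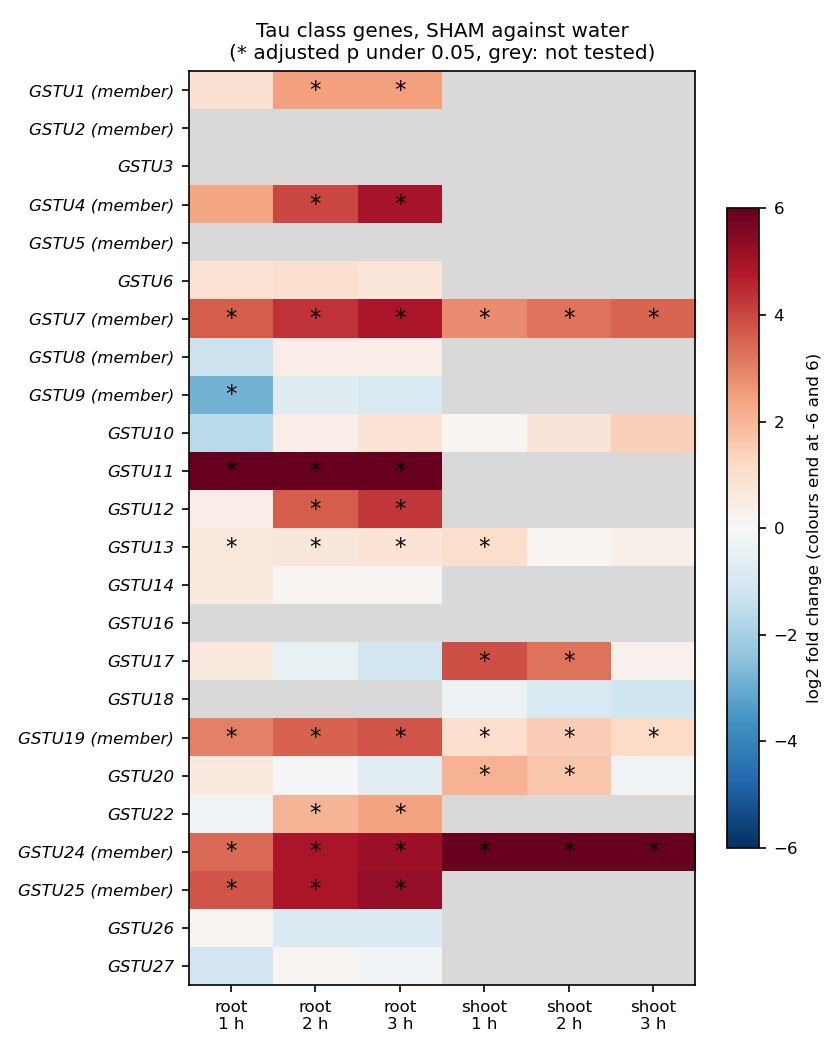
Log2 fold change of SHAM against water (colour) for the 24 tau class genes of the table (rows; members are marked) in roots and shoots at 1, 2 and 3 h (columns). Stars mark an adjusted p under 0.05, grey cells were not tested, and the darkest cells of GSTU11 in roots and GSTU24 in shoots rest on 0 water counts, so their colour is no measure of size. Among members, GSTU7, GSTU19, GSTU24 and GSTU25 are starred in all 3 root columns.

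Genes that make or handle glutathione were 11 of 13 tested in roots, where 1, 2 and 2 were higher and none lower, with medians of -0.02, 0.53 and 0.33. The share of all genes called higher was 7.01%, 8.6% and 9.99%. GSH1, the enzyme of the first step of glutathione synthesis, was at 297, 231 and 318 CPM in water roots and at 536, 1169 and 579 CPM at 1 h. It rose by 1.69 ± 0.29 (adjusted p = 0.00221), 1.58 ± 0.29 (adjusted p = 0.00231) and 1.503 ± 0.290 (adjusted p = 0.00284) at 1, 2 and 3 h. ABCC2, a vacuolar transporter of glutathione conjugates, rose in roots at 2 h (1.54 ± 0.37, adjusted p = 0.0135) and 3 h (1.23 ± 0.38, adjusted p = 0.0369). Its 2 h call was lost without water replicate 3 (1.42, adjusted p = 0.0608). The 3 h call of ABCC2 was lost without any 1 of the 3 water libraries or without SHAM 3 h replicate 2 (adjusted p up to 0.158). In shoots 0, 0 and 1 of 8 were called by edgeR, the 1 being GSH1 at 3 h (0.81 ± 0.22, adjusted p = 0.031), which was lost in all 6 fits that left out 1 library. At 1 and 2 h in shoots, 3 and 4 of the 8 had an unadjusted p under 0.05, and DESeq2 called 0 and 0. The share of all genes at that unadjusted threshold was not counted. Of TGA factors and SCL14, 0 of 6 were called in roots and 0 of 4 in shoots at any time by edgeR. At an unadjusted p under 0.05 there was 1 at each root time and 0, 0 and 1 in shoots, and DESeq2 called 0 at every time in both organs. Of all genes tested in roots, edgeR called 5.22%, 5.4% and 6.4% lower at 1, 2 and 3 h. For shoots these shares were 7.49%, 7.44% and 2.68% lower and 9.36%, 8.38% and 6.31% higher.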

How the data were processed

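Seedling roots and shoots gave 24 MARS-seq libraries, 3 in each of 8 groups taken from the labels. Tools named in the submitters' processing notes are STAR 2.4.2a, HTSeq, cutadapt, bcl2fastq and DESeq2; the handling of molecular identifiers is not given in the sources used here. The authors deposited whole-number counts per gene and library, with log2 fold changes and adjusted p-values of their own comparisons, which are not printed here. A further 48 per-sample columns (normalized and transformed values) were not used. Counts were fitted with edgeR 4.0.16 (R 4.3.3) on genes kept by filterByExpr, at a min.count of 10 and a min.total.count of 15, with TMM scaling, 12 libraries per organ, or 24 for organ differences and the organs in water. p-values were adjusted by Benjamini and Hochberg's method over all genes tested. Each SE was derived by dividing the size of the log2 change by the root of the F statistic. CPM values are counts scaled to a library total of 1e+06. A group at 0 was given a floor of 3 counts over the group, and ratios on 1 to 3 counts have exact 95% counting intervals. DESeq2 1.42.0, other scalings, no filter, a replicate block, a 2-fold threshold, a fit of all 24 libraries and leaving out each library were the alternatives. The edgeR fit was tested on simulated data. Sequences were read from the RefSeq TAIR10.1 genome with python 3.11.15.

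The members, gene lists and tests were chosen with earlier results of these data known. Named genes are the 10 members, up to 3 called genes per list and comparison with the highest absolute log2 fold change, and for each member with a mean of at least 10 CPM in an organ the 1 gene with the highest r; a part of these is printed, and GSTU2, GSTU5 and listed genes that moved against the rest are given by value. Replicates are pools of seedlings by the labels, and nothing says that same-numbered pools share a culture or day. Deviations of same-numbered libraries correlated above 0.1 in all pairs for shoots between 2 and 3 h (r from 0.244 to 0.569). No other comparison had this in all pairs. At that same step, replicate 1 at 2 h and replicate 2 at 3 h, of unlike number, reached r = 0.374. Whether the numbers pair libraries cannot be told from these values. The block changed no member's call at that step.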

Additional observations from a re-analysis of the deposited data

Results flagged for a closer look

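The response of GSTU19 differed between organs by a direct test. In a fit of all 24 libraries, its log2 change in shoots minus that in roots was -2.10 at 1 h, -2.13 at 2 h and -2.63 at 3 h, with SE of 0.41, 0.40 and 0.41 and edgeR adjusted p of 0.00375, 0.00331 and 0.000683. The level went from 275 ± 41.4 CPM (SD, n = 3) in water roots to 2975 ± 703 CPM at 3 h, and from 326 ± 19.6 to 748 ± 146 CPM in shoots. Over the alternatives the difference ran from -2.37 to -1.90 at 1 h, from -2.33 to -1.65 at 2 h and from -2.79 to -2.23 at 3 h, and the highest adjusted p were 0.0193, 0.0218 and 0.00708. On CPM, all 9 SHAM root libraries were above all 9 SHAM shoot libraries, a separation not examined on the scaling of the fit.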

How the results depend on the processing

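Of 1233 member values recomputed under the alternatives, 1216 kept their side of the threshold, among them 40 uncalled values that changed sign, 13 lost a call, 4 gained one and 0 called values reversed; of 586 values of other listed genes, 452 kept direction and side, 132 lost a call and 2 reversed. Both reversals were between organs in water with library size alone: GSTU20 went from 0.90 to -0.17 and GSH1 from 1.05 to -0.032, where the median of all genes moves by -1.07. From 1 to 2 h in roots, 1 member was called, against 3 with DESeq2 and 0 without SHAM 1 h replicates 1 and 2 together (a setting added after seeing the data, with 1 library left at 1 h and the spread taken from the other groups). Leaving out 1 library gave 0 to 1 there. For the organ difference at 1 h, DESeq2 called 2 members against 1. With 1 library left out, the number of members called ran from 4 to 6, 5 to 6 and 6 to 6 in roots at 1, 2 and 3 h, from 3 to 4, 3 to 3 and 3 to 3 in shoots, and from 4 to 6 between organs in water. With a replicate block 4 members were called in roots at 1 h against 5, and no other member count or call changed. Whether the numbers pair libraries is not known. The cause of these changes was not tested. Depth limits GSTU2, GSTU4 and GSTU5 in roots and all members but GSTU7 and GSTU19 in shoots.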

Other observations

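In shoots, 3 of 5 tested tau class genes outside the 10 members were higher at 1 h, 2 were higher at 2 h and none at 3 h by edgeR, with 2 at an unadjusted p under 0.05 and 0 by DESeq2 at 3 h. Of all genes tested in shoots, edgeR called 9.36%, 8.38% and 6.31% higher at 1, 2 and 3 h. GSTU20, which lies beside GSTU19 and is known to interact with the jasmonate-conjugating enzyme FIN219, was at 116, 70.9 and 66.0 CPM in water shoots and at 301, 208 and 412 CPM at 1 h. It was at 279, 239 and 241 CPM at 2 h and at 55.0, 83.9 and 77.8 CPM at 3 h, where replicate 1 lay below the water range and the others within it. The change was 2.08 ± 0.29 at 1 h (adjusted p = 0.000231), 1.66 ± 0.29 at 2 h (adjusted p = 0.0013) and -1.88 ± 0.29 from 2 to 3 h (adjusted p = 0.00193). GSTU17, described as a regulator of stress and light responses, had 4 counts in water shoots, 35 at 1 h, 40 at 2 h and 5 at 3 h. It fell from 2 to 3 h by 3.00 on the log2 scale (SE 0.74, adjusted p = 0.0241). This call was lost without SHAM 2 h replicate 3 or SHAM 3 h replicate 1 or 2 (adjusted p up to 0.114). GSTU17 passed the filter on low counts through SHAM 1 and 2 h alone. The filter thus favoured a higher call at 1 and 2 h, which is part of the counts above, and a lower call from 2 to 3 h. In the same shoots GSTU19 and GSTU7 were at or near their highest level at 3 h and had no called change from 2 to 3 h. In roots neither GSTU20 nor GSTU17 was called against water at any time.

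Shoot marker genes also moved in shoots: 9 and 8 of 15 were higher at 1 and 2 h, and 7 of 15 fell from 2 to 3 h. Of all genes tested, 9.36% and 8.38% were called higher at 1 and 2 h, and 4.28% lower from 2 to 3 h. Their part in the GSTU20 and GSTU17 values was not tested.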
